A study of Mus musculus with 8 samples.

Results

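The 8 arrays of this mouse hepatocyte study form a 2 by 2 design, and the results below concern the interaction of its factors, the HO1 genotype and the shRNA. For each gene the interaction is the effect of the HO2 hairpin in HO1-/- cells minus its effect in HO1+/+ cells, that is (HO1 ko/HO2 kd minus HO1 ko) minus (HO2 kd minus control) on log2 signals. A value of 0 means that the effects add up on the log2 scale. A negative value means that cells with both changes had less signal than the sum of the separate changes, and a positive value means that they had more. All 8 arrays entered the fit, and 19938 genes with a single gene symbol were tested, each through its brightest probe set. Of these, 2442 genes (12.2%) departed from additivity by limma's moderated test with a Benjamini-Hochberg adjusted p under 0.05.

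The cells were primary hepatocytes of male BALB/c mice, put in culture and transduced with a lentiviral pLKO.1 vector. The HO1 ko/HO2 kd group (2 arrays) came from HO1-/- mice and carried an shRNA against HO2, and the HO1 ko group (2 arrays) came from HO1-/- mice and carried a scrambled shRNA. The HO2 kd group (2 arrays) came from HO1+/+ mice and carried the HO2 shRNA, and the control group (2 arrays) came from HO1+/+ mice and carried the scrambled shRNA. All 4 groups had puromycin selection for 3 days from 24 h after transduction, then 1 µM dexamethasone for 30 min, which sets the circadian phase of cultured cells, and were harvested 28 h later. The knockdown rested on 1 hairpin, and the cells were sampled at 1 time. Sample titles name the 2 arrays of each group biological replicates, with no word on separate mice or cultures. The p-values thus measure only the spread between these samples, which may not cover the spread between mice. Genotype and hepatocyte preparation cannot be told apart.

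Heme oxygenases open the heme ring and release carbon monoxide, iron and biliverdin. HO1, encoded by Hmox1, is the inducible enzyme and HO2, encoded by Hmox2, the constitutive one, so a cell that has lost one enzyme still has the other. Heme and carbon monoxide bind several transcriptional regulators of the hepatocyte, among them the circadian factors NPAS2 and REV-ERBα. An interaction asks whether the response to loss of HO2 depends on HO1.

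The targeted transcripts came first. Hmox2 had log2 signals of 9.26 and 9.32 in HO1 ko/HO2 kd cells, 11.59 and 11.60 in HO1 ko cells, 8.32 and 8.38 in HO2 kd cells, and 11.41 and 11.57 in control cells. The hairpin arrays of both genotypes lay below all scrambled arrays, and the hairpin lowered Hmox2 by less in HO1-/- cells (log2 change -2.30) than in HO1+/+ cells (log2 change -3.14). That difference, 0.84 ± 0.09 (SE), was itself called (limma adjusted p = 3.9e-05), so the HO2 kd and HO1 ko/HO2 kd cells differed in residual Hmox2 signal, and every interaction below carries this unequal knockdown. On the linear scale the interaction of Hmox2 was not called. Hmox1 had 12.40 and 12.47 in HO1 ko/HO2 kd cells, 11.98 and 11.97 in HO1 ko cells, 11.54 and 11.57 in HO2 kd cells, and 11.46 and 11.40 in control cells. The arrays labelled HO1-/- thus did not have less Hmox1 signal than those labelled HO1+/+, and the probe set does not say whether it covers the deleted part of the gene, so it does not check the genotype labels. Its interaction was 0.34 ± 0.07 (SE; limma adjusted p = 0.003).

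Albumin, the defining hepatocyte transcript, had log2 signals between 13.32 and 13.99 on the 8 arrays. The mean of 24 macrophage and Kupffer cell markers was 9.79 and 9.83 in HO1 ko/HO2 kd cells, 9.83 and 9.83 in HO1 ko cells, 7.35 and 7.50 in HO2 kd cells, and 7.53 and 7.52 in control cells. The cultures labelled HO1-/- therefore held more macrophage transcript with either shRNA, while the interaction of these markers had a median of 0.11, against 0.05 over all genes. Replicate arrays correlated at 0.9967 to 0.9986, and arrays of different groups at 0.9746 to 0.9887. The control arrays differed in interferon-stimulated transcripts (mean log2 signal of 22 genes 9.92 and 10.26), and leaving out control replicate 2 raised the number of called genes to 4745. In such bulk samples fewer cells of a type and less RNA per cell cannot be told apart.

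Among the 2442 called genes, 1510 were lower than additive (7.57% of all genes tested) and 932 were higher (4.67%). The median size of a called interaction was 0.46 on the log2 scale, and 58 genes were at least 2-fold lower than additive and 46 at least 2-fold higher. This split depended on scaling and on 1 array. Higher genes were 38.2% of the calls on the deposited values and 27.3% once all arrays were shifted to the same median. They were 50.4% once quantile normalization was repeated, and 52.6% without control replicate 2 (2495 higher, 2250 lower). The hairpin changed 4587 genes (23.0%) in HO1-/- cells and 6620 genes (33.2%) in HO1+/+ cells. Between HO1-/- and HO1+/+ cells, which also differ in preparation, 6775 genes (34.0%) differed with the HO2 shRNA and 2557 genes (12.8%) with the scrambled shRNA.

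**Figure D1:**
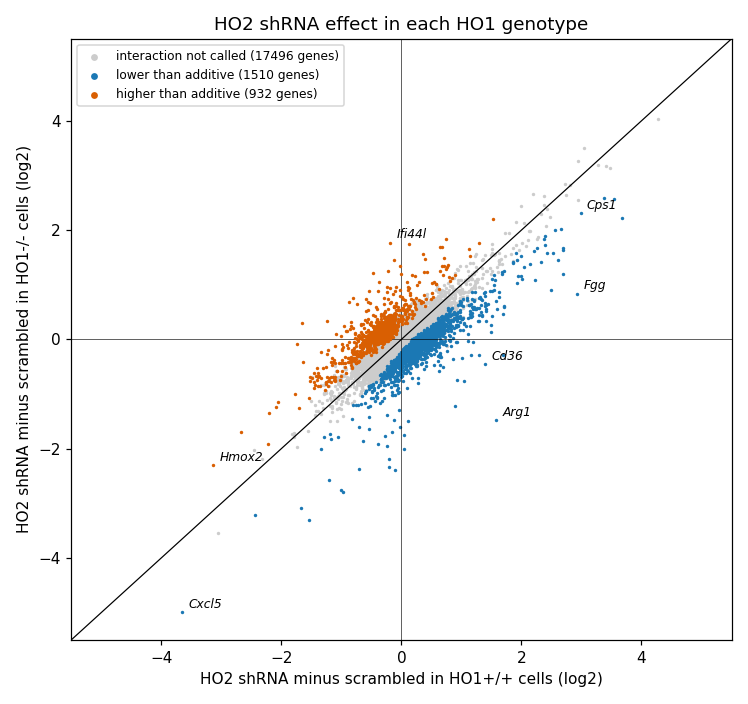
Effect of the HO2 hairpin (HO2 shRNA minus scrambled, log2) in HO1-/- cells on the vertical axis and in HO1+/+ cells on the horizontal axis, 1 point per gene. Points on the diagonal are additive; the 1510 genes called lower than additive lie below it and the 932 called higher lie above it, with Arg1 (interaction -3.06) farthest below and Ifi44l (1.95) farthest above.

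An interaction can take several shapes, so each gene was also classed by whether both arrays of a group lay above, or below, all 6 other arrays. The HO2 kd group was the one that most often stood apart. Both HO2 kd arrays lay above all others for 972 of the 1510 lower genes (64.4%) and below all others for 579 of the 932 higher genes (62.1%), against 17.3% and 18.5% of all genes tested. The HO1 ko/HO2 kd arrays lay below all others for 577 of the lower genes (38.2%), against 14.0% of all genes, and above all others for 254 of the higher genes (27.3%), against 7.73%. The control arrays were lowest for 356 of the lower genes (23.6%; 5.05% of all genes) and highest for 270 of the higher genes (11.1% of all genes). HO1 ko arrays were highest for 201 of the lower genes (13.3%; 5.66% of all genes) and lowest for 127 of the higher genes (13.6%; 8.96% of all genes). The interaction uses the same arrays as these classes, so the shares describe its shape and test nothing. In 169 genes (0.848%), 62 of them higher and 107 lower than additive, the hairpin effect passed the test in both genotypes with opposite signs.

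**Figure D2:**
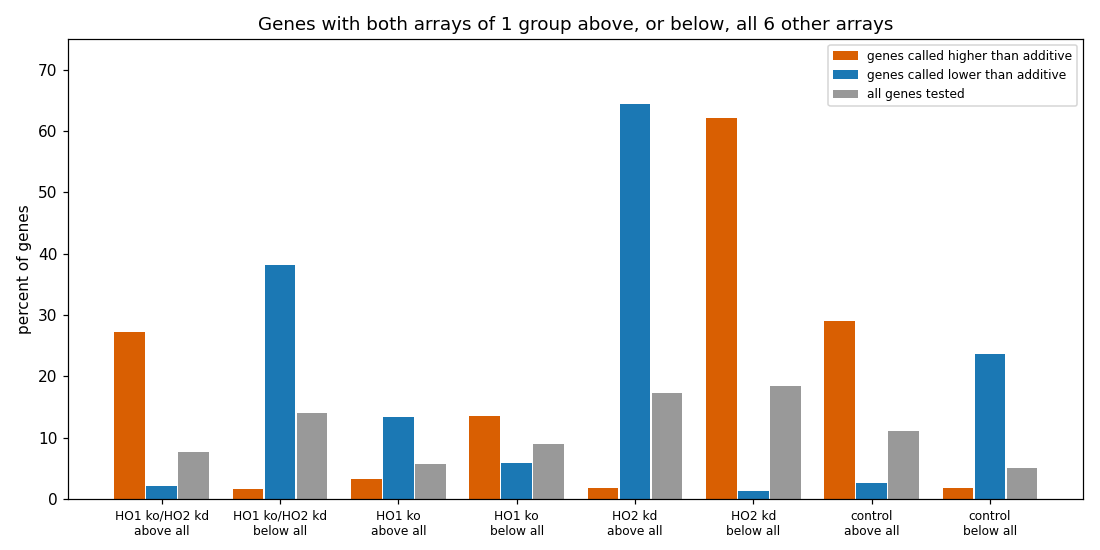
Percent of genes (vertical axis) for which both arrays of the named group lay above, or below, all 6 other arrays, among genes called higher than additive, genes called lower than additive and all genes tested. HO2 kd arrays lay above all others for 64.4% of the lower genes and below all others for 62.1% of the higher genes.

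Acute phase genes, which hepatocytes transcribe in response to interleukin 6 and other inflammatory signals and whose products are secreted into plasma, had the largest share of calls of the 26 lists. Of 20 measured members, 18 were lower than additive and 0 were higher, against backgrounds of 7.57% and 4.67%, and the median interaction was -1.12, against 0.05 over all genes. All 20 had a negative interaction. The median difference of these genes between HO1-/- and HO1+/+ cells was 1.03 with the scrambled shRNA and -0.02 with the HO2 shRNA. The count of lower members was 17 or 18 when any single array was left out.

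The fibrinogen chains, which polymerise into the clot, rose with either change and little further with both. Fgg, the gamma chain, had 12.08 and 12.13 in HO1 ko/HO2 kd cells, 11.20 and 11.35 in HO1 ko cells, 11.84 and 11.87 in HO2 kd cells, and 8.80 and 9.04 in control cells. The control arrays lay below the other 6, and HO1 ko/HO2 kd cells had 0.233 times the signal that additive effects would give (interaction -2.10 ± 0.10 SE, limma adjusted p = 7.5e-09). The alpha and beta chain genes Fga and Fgb, with interactions of -1.08 and -0.83, had the same order, with the lowest signals in control cells. Itih4, an inter-alpha-trypsin inhibitor heavy chain, had 11.27 and 11.19, 9.77 and 9.79, 10.85 and 10.86, and 8.23 and 8.27 in HO1 ko/HO2 kd, HO1 ko, HO2 kd and control cells, with an interaction of -1.16.

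Orosomucoid and serum amyloid genes took another shape, with high signals mainly in HO1 ko cells. Orm2, an orosomucoid or alpha-1-acid glycoprotein that binds drugs and lipids in plasma, had 8.09 and 8.11 in HO1 ko/HO2 kd cells, 10.84 and 10.87 in HO1 ko cells, 7.92 and 8.07 in HO2 kd cells, and 8.96 and 9.02 in control cells. Orm2 was higher by 1.86 in HO1-/- than in HO1+/+ cells with the scrambled shRNA. With the HO2 shRNA that difference was 0.11 (limma adjusted p = 0.29), and the interaction was -1.76 ± 0.11 (SE, limma adjusted p = 9.9e-08). Orm1 and Orm3 had interactions of -1.72 and -1.49, but orosomucoid genes are close copies whose probes may share signal. Saa4, an apolipoprotein of high-density lipoprotein, had 9.53 and 9.58 in HO1 ko/HO2 kd cells, 11.25 and 11.36 in HO1 ko cells, 10.72 and 10.73 in HO2 kd cells, and 10.59 and 10.77 in control cells. Saa4 was thus lowest in the cells with both changes, at 0.289 times the additive value (interaction -1.79 ± 0.09 SE, limma adjusted p = 1.4e-08). The inducible Saa1, Saa2 and Saa3 had interactions between -1.66 and -1.41, with both HO1 ko arrays above the other 6 arrays. Hp, the haptoglobin gene whose product binds free hemoglobin, had 12.42 and 12.44 in HO1 ko/HO2 kd cells, 13.16 and 13.21 in HO1 ko cells, 12.41 and 12.50 in HO2 kd cells, and 12.46 and 12.42 in control cells, so that only the HO1 ko arrays stood apart. Lrg1, a secreted glycoprotein outside the list, had 9.88 and 9.97, 11.20 and 11.08, 9.83 and 9.83, and 8.89 and 8.995 in HO1 ko/HO2 kd, HO1 ko, HO2 kd and control cells, with hairpin effects of -1.21 in HO1-/- and 0.89 in HO1+/+ cells.

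**Figure D3:**
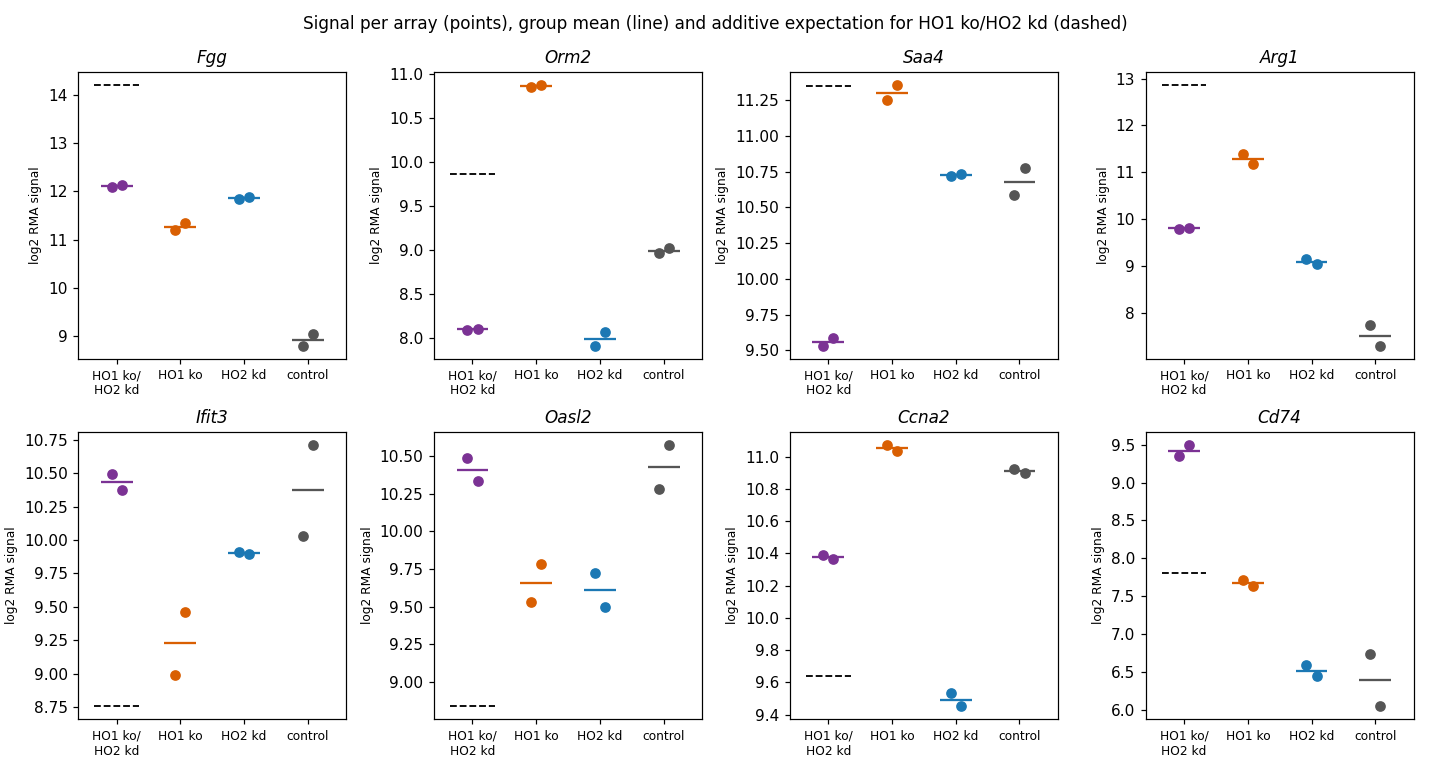
Log2 RMA signal of 8 genes on each array (points) with the group mean (line), by group, and the value that additive effects would give for HO1 ko/HO2 kd cells (dashed). Fgg, Orm2, Saa4 and Arg1 lie below the dashed line in HO1 ko/HO2 kd cells, and Ifit3, Oasl2, Ccna2 and Cd74 lie above it.

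Arg1, which encodes the urea cycle enzyme arginase and is also made by some macrophages, had the largest interaction of any gene tested. Its signals were 9.80 and 9.81 in HO1 ko/HO2 kd cells, 11.39 and 11.19 in HO1 ko cells, 9.14 and 9.05 in HO2 kd cells, and 7.73 and 7.30 in control cells. The log2 change with the hairpin was -1.48 in HO1-/- cells and 1.58 in HO1+/+ cells, and both passed the test. The interaction was -3.06 ± 0.16 (SE, limma adjusted p = 1.2e-08), and cells with both changes had 0.12 times the additive value. Cps1, the first enzyme of the same cycle, had 13.32 and 13.36 in HO1 ko/HO2 kd cells, 10.95 and 11.11 in HO1 ko cells, 13.27 and 13.24 in HO2 kd cells, and 10.17 and 10.36 in control cells. It rose with the hairpin in both genotypes (log2 changes 2.31 in HO1-/- and 2.99 in HO1+/+ cells), and its interaction of -0.68 on the log2 scale was not called on the linear scale. Among 16 measured gluconeogenesis and amino acid catabolism genes, 4 were lower than additive (25%, against 7.57% of all genes). There were 2 higher (12.5%, against 4.67%), and the median was -0.17.

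Lipid oxidation genes were lower than additive in 9 of 19 measured members (47.4%, against 7.57% of all genes), with 0 higher and a median of -0.21. These are targets of PPARA, the fatty acid receptor of the fasted liver. Ehhadh, the peroxisomal bifunctional enzyme, had 9.18 and 9.09 in HO1 ko/HO2 kd cells, 8.72 and 8.67 in HO1 ko cells, 10.21 and 10.21 in HO2 kd cells, and 8.63 and 8.76 in control cells. The hairpin raised it by 0.44 in HO1-/- cells and by 1.51 in HO1+/+ cells, and the interaction was -1.07 ± 0.10 (SE, limma adjusted p = 9.8e-06). Cyp4a10, a fatty acid omega-hydroxylase, had 7.47 and 7.60 in HO1 ko/HO2 kd cells, 6.51 and 6.14 in HO1 ko cells, 9.10 and 9.06 in HO2 kd cells, and 6.46 and 6.31 in control cells. All 5 measured Cyp4a genes were lower than additive, with a median of -1.49, but they are close copies, and this family was looked at after its values were seen. Cyp4a12a and Cyp4a12b had hairpin effects of opposite sign in the genotypes (Cyp4a12a log2 -0.76 in HO1-/- and 1.05 in HO1+/+ cells). Cyp4a12a had 8.30 and 8.34 in HO1 ko/HO2 kd cells, 9.21 and 8.95 in HO1 ko cells, 9.70 and 9.71 in HO2 kd cells, and 8.55 and 8.75 in control cells. Cd36, a fatty acid uptake receptor found on hepatocytes and macrophages, had 10.67 and 10.74, 11.13 and 11.20, 10.60 and 10.64, and 9.17 and 9.28 in HO1 ko/HO2 kd, HO1 ko, HO2 kd and control cells. Its control arrays lay far below the other 6, and its interaction was -1.85 ± 0.09 (SE, limma adjusted p = 7.3e-09).

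Other hepatocyte lists leaned the same way with smaller values. Of 18 hepatocyte identity genes, 7 were lower than additive (38.9%, against 7.57% of all genes) and 0 higher, with a median of -0.21. Their median hairpin effect was 0.57 in HO1-/- and 0.79 in HO1+/+ cells. Ahsg, the plasma glycoprotein fetuin A, had 13.64 and 13.70 in HO1 ko/HO2 kd cells, 13.22 and 13.18 in HO1 ko cells, 13.51 and 13.54 in HO2 kd cells, and 12.60 and 12.59 in control cells (interaction -0.46). Hnf4a, the nuclear receptor that maintains hepatocyte transcription, had an interaction of -0.29. The calls for Ahsg and Hnf4a were lost when additivity was taken on the linear scale.

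Xenobiotic metabolism had 5 lower (31.2%, against 7.57% of all genes) and 0 higher members of 16, with a median of -0.30. Cyp1a2, a cytochrome that metabolises caffeine, had 9.01 and 9.08 in HO1 ko/HO2 kd cells, 7.95 and 7.93 in HO1 ko cells, 9.41 and 9.13 in HO2 kd cells, and 7.30 and 7.23 in control cells (interaction -0.90 ± 0.14 SE). Cyp2b10 and Nr1i2, the pregnane X receptor, had interactions of -0.79 and -0.84. Of 18 bile acid genes 5 were lower (27.8%) and 1 higher (5.56%, near the 4.67% of all genes). The higher gene was Cyp7a1, the rate-limiting enzyme of bile acid synthesis, with 7.23 and 7.06 in HO1 ko/HO2 kd cells, 5.45 and 5.44 in HO1 ko cells, 6.03 and 6.13 in HO2 kd cells, and 5.50 and 5.38 in control cells. HO1 ko/HO2 kd arrays lay above the other 6, and the interaction was 1.06 ± 0.14 (SE, limma adjusted p = 0.00017). Cyp7a1 was among the dimmest 25% of the genes tested, and its signals in the other groups were low. Glucocorticoid targets had 5 lower (29.4%) and 0 higher members of 17 (median -0.19), with Cebpd at -0.81 and Dusp1 at -0.53. For the integrated stress and unfolded protein response the counts were 5 lower (25%) and 0 higher of 20. Cholesterol and fatty acid synthesis had 4 lower (22.2%) and 1 higher (5.56%) of 18. Glycolysis and hypoxia had 3 lower (15.8%) and 2 higher (10.5%) of 19.

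Interferon-stimulated genes, which encode antiviral proteins, departed upward. Of 22 measured members, 16 were higher than additive (72.7%, against 4.67% of all genes) and 0 lower, with a median interaction of 0.62. All 22 had a positive interaction. The median hairpin effect on them was 0.22 in HO1-/- cells and -0.45 in HO1+/+ cells. The number of higher members was 15 without control replicate 2 and 20 without control replicate 1, and it fell to 10 when additivity was taken on the linear scale. Ifit3, an inhibitor of viral RNA translation and a partner of Ifit1 (roles known best in human cells), had 10.49 and 10.38 in HO1 ko/HO2 kd cells, 8.99 and 9.46 in HO1 ko cells, 9.91 and 9.89 in HO2 kd cells, and 10.03 and 10.71 in control cells. Both single changes thus had lower signals than control cells, and cells with both overlapped the control range. The hairpin effect was 1.21 in HO1-/- cells and -0.47 in HO1+/+ cells, and the interaction was 1.67 ± 0.23 (SE, limma adjusted p = 0.00021). Oasl2, of the oligoadenylate synthetase family, had 10.48 and 10.33 in HO1 ko/HO2 kd cells, 9.53 and 9.78 in HO1 ko cells, 9.72 and 9.50 in HO2 kd cells, and 10.28 and 10.57 in control cells, and its interaction was 1.57 ± 0.15 (SE, limma adjusted p = 5.9e-06). Ifit1 had 10.58 and 10.44, 9.51 and 9.74, 10.18 and 10.01, and 10.26 and 10.72 in HO1 ko/HO2 kd, HO1 ko, HO2 kd and control cells.

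Ifi44l, the gene with the largest positive interaction of all genes tested, had another shape, with its highest signals in HO1 ko/HO2 kd cells. It had 9.65 and 9.66 in HO1 ko/HO2 kd cells, 7.91 and 7.87 in HO1 ko cells, 6.55 and 6.77 in HO2 kd cells, and 6.96 and 6.73 in control cells, and its interaction was 1.95 ± 0.15 (SE, limma adjusted p = 8.6e-07). Slfn1, a Schlafen gene of leukocytes, had 8.60 and 8.46, 7.27 and 7.28, 6.09 and 6.07, and 6.29 and 6.30 in the same order of groups. Both genes were higher in HO1-/- than in HO1+/+ arrays with either shRNA, as the macrophage markers were. Their part in these values was not tested.

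The promoters of interferon-stimulated genes carry a short element, the ISRE, bound by the factor complex that interferon activates. RefSeq promoter windows of 300 bases, mostly before the start and in build GRCm38.p6, were at hand for 18 of the 22 genes, and the ISRE core GAAANNGAA stood in 11 of them (61.1%) on either strand. The core stood in 7.93% of the 15562 promoters of genes tested, in 12.3% of those of higher genes and in 5.78% of those of lower genes. A match describes letters only, and neighbouring or overlapping cores count once per promoter. The windows of Ifit3 (chr19:34583279-34583578 on the plus strand), Ifit1 (chr19:34640639-34640938 on the plus strand) and Gbp3 (chr3:142559794-142560093 on the plus strand) are given 5′ to 3′ because these list members had large interactions (1.67, 1.28 and 1.09) and more than 1 core; capitals mark the cores, on this strand or as their reverse complement.
Ifit3: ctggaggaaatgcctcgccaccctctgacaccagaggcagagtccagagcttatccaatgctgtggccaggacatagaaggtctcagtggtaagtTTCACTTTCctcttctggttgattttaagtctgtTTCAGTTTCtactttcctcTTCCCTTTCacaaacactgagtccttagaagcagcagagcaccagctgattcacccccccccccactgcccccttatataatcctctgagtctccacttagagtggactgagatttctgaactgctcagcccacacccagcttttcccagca
Ifit1: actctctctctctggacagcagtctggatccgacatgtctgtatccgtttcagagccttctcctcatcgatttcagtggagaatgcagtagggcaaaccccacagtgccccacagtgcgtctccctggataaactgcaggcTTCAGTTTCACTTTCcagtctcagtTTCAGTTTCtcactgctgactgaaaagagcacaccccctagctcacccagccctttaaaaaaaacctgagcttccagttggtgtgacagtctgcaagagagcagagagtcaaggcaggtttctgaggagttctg
Gbp3: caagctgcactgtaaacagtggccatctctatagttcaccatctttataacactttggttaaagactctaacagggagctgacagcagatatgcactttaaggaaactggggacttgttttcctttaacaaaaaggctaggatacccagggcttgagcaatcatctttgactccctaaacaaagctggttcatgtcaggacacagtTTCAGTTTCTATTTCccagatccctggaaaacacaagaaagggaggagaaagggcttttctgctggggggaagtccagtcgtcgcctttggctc

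Cell cycle genes also departed upward. Of 25 measured members, 14 were higher than additive (56%, against 4.67% of all genes) and 0 lower. The median was 0.42, and all 25 members had a positive interaction. The hairpin lowered them in both genotypes, with a median log2 effect of -0.72 in HO1-/- cells and -1.17 in HO1+/+ cells, so the departure was a smaller fall in HO1-/- cells. Mki67, which coats mitotic chromosomes and marks cycling cells, had 10.00 and 10.03 in HO1 ko/HO2 kd cells, 10.63 and 10.64 in HO1 ko cells, 9.02 and 8.93 in HO2 kd cells, and 10.39 and 10.47 in control cells. HO2 kd arrays lay below the other 6, and the interaction was 0.84 ± 0.09 (SE, limma adjusted p = 2.5e-05). Ccna2, the cyclin of S phase and early mitosis, had 10.39 and 10.37 in HO1 ko/HO2 kd cells, 11.07 and 11.04 in HO1 ko cells, 9.53 and 9.45 in HO2 kd cells, and 10.92 and 10.90 in control cells (interaction 0.74 ± 0.08 SE). Cdk1, the kinase that starts mitosis, had 9.86 and 9.80, 10.62 and 10.46, 9.16 and 9.29, and 10.73 and 10.69 in HO1 ko/HO2 kd, HO1 ko, HO2 kd and control cells. The count of higher members was less stable than that of the acute phase list: 9 with arrays centred on their medians, 6 on the linear scale, and between 8 and 14 when any single array was left out. The macrophage markers were higher in the HO1-/- arrays, as given above, and their part in the cell cycle values was not tested.

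**Figure D4:**
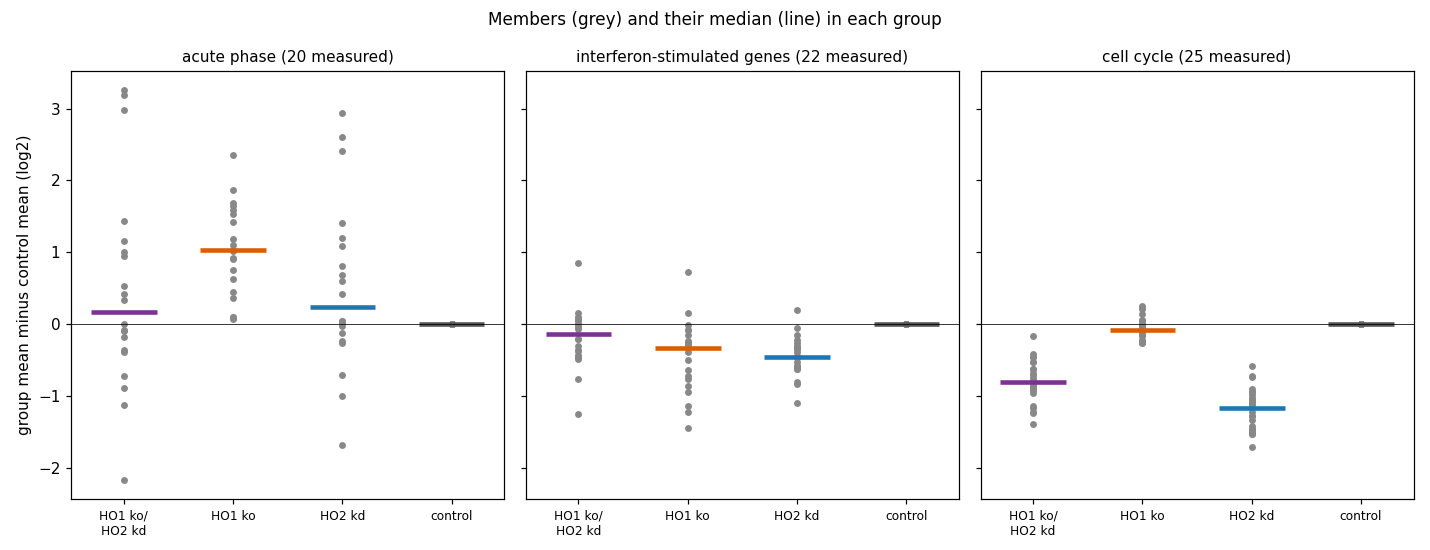
Difference of each group mean from the control mean (log2, vertical axis) for the measured members of 3 lists (grey points), with the median of the members in each group (line). The median of the acute phase members is highest in HO1 ko cells, with a median difference from HO1+/+ cells of 1.03 under scrambled shRNA. Interferon-stimulated genes are lower with either single change. Cell cycle members fall with the hairpin, by less in HO1-/- cells.

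The cell cycle promoters were searched for the CHR element, TTTGAA, through which mitotic genes are repressed in resting cells. It stood in 11 of 21 promoters (52.4%), against 15.2% of all promoters, 18.2% of those of higher genes and 10.8% of those of lower genes, on either strand. The windows of Mki67 (chr7:135716330-135716629 on the minus strand) and Cdk1 (chr10:69352863-69353162 on the minus strand) are shown, with the CHR letters in capitals, because both genes were higher than additive and hold 2 copies.
Mki67: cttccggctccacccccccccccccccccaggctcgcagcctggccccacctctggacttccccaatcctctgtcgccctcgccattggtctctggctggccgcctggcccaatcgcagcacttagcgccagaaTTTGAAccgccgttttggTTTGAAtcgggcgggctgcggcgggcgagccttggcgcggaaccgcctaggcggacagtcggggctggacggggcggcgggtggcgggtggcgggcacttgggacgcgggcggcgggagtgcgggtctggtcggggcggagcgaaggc
Cdk1: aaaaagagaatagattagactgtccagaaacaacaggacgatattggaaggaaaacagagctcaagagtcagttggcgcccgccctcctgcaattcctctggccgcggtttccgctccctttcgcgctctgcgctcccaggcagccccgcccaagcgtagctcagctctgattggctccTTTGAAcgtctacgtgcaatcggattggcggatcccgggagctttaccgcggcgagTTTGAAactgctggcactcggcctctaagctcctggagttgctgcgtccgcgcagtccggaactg

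Genes of macrophages split in both directions. Of the 24 macrophage and Kupffer markers, 5 were higher than additive and 3 lower, so their share of calls (20.8% higher and 12.5% lower) lay above the backgrounds of 4.67% and 7.57% on both sides. Adgre1, which encodes the F4/80 antigen, had 9.80 and 10.02 in HO1 ko/HO2 kd cells, 11.19 and 11.21 in HO1 ko cells, 6.43 and 6.60 in HO2 kd cells, and 6.43 and 6.67 in control cells. The hairpin lowered it in HO1-/- cells (log2 -1.29) and had an effect of -0.04 in HO1+/+ cells, where the signal was low, and the interaction was -1.25 ± 0.14 (SE, limma adjusted p = 5.9e-05). Itgam, the integrin CD11b, had an interaction of -0.85. C1qc, a chain of the first complement component, had 11.93 and 12.05 in HO1 ko/HO2 kd cells, 11.26 and 11.10 in HO1 ko cells, 8.06 and 8.11 in HO2 kd cells, and 7.91 and 7.96 in control cells (interaction 0.66 ± 0.10 SE). Vsig4, a complement receptor of resident macrophages, had 7.69 and 7.71, 6.24 and 6.47, 7.56 and 7.24, and 7.27 and 7.58 in HO1 ko/HO2 kd, HO1 ko, HO2 kd and control cells, so that the HO1 ko arrays lay below the other 6.

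Several of the largest interactions outside the lists were in genes with little signal in HO1+/+ cells. Ms4a7, a membrane protein of macrophages, had 6.68 and 6.90 in HO1 ko/HO2 kd cells, 9.20 and 9.05 in HO1 ko cells, 5.36 and 5.51 in HO2 kd cells, and 5.78 and 5.49 in control cells (interaction -2.14 ± 0.17 SE). Rnase2a, a secreted ribonuclease, had 10.52 and 10.39, 12.65 and 12.65, 7.11 and 7.47, and 7.34 and 7.66 in the same order (interaction -1.98). Ccl12, a monocyte chemokine, had 6.54 and 6.38 in HO1 ko/HO2 kd cells, 8.83 and 8.86 in HO1 ko cells, 6.08 and 6.04 in HO2 kd cells, and 6.12 and 6.23 in control cells (interaction -2.27 ± 0.14 SE). In these genes the hairpin lowered the signal in HO1-/- cells, with log2 effects from -2.39 to -2.19, against -0.21 to -0.11 in HO1+/+ cells.

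Among the largest positive interactions were Cd74, H2-Aa and Clec7a. Cd74, the invariant chain of MHC class II, had 9.35 and 9.49 in HO1 ko/HO2 kd cells, 7.72 and 7.64 in HO1 ko cells, 6.59 and 6.44 in HO2 kd cells, and 6.73 and 6.05 in control cells (interaction 1.62 ± 0.22 SE, limma adjusted p = 0.00023). H2-Aa, a class II alpha chain, had 7.49 and 7.30, 6.32 and 6.07, 5.89 and 5.90, and 6.01 and 5.80 in HO1 ko/HO2 kd, HO1 ko, HO2 kd and control cells. Clec7a, the beta-glucan receptor dectin-1, had 10.27 and 10.41 in HO1 ko/HO2 kd cells, 8.94 and 8.84 in HO1 ko cells, 6.98 and 6.88 in HO2 kd cells, and 7.17 and 6.93 in control cells (interaction 1.57 ± 0.14 SE). The HO1 ko/HO2 kd arrays were the highest of all 8 for these 3 genes. All 3 had low signals in HO1+/+ cells, where a hairpin effect would be hard to see. Of 10 measured class II genes with Cd74, 3 were higher than additive and 0 lower, against 4.67% and 7.57% of all genes, and the family was looked at after its values were seen.

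Inflammatory genes of the NF-kB list had 4 higher (16.7%, against 4.67% of all genes) and 6 lower (25%, against 7.57%) members of 24. Cxcl5, a neutrophil chemokine, had the largest hairpin effects among them, with 7.12 and 6.93 in HO1 ko/HO2 kd cells, 11.94 and 12.11 in HO1 ko cells, 8.38 and 8.53 in HO2 kd cells, and 12.05 and 12.17 in control cells. Its interaction on the log2 scale was -1.34 ± 0.12 (SE, limma adjusted p = 3.1e-06), and on the linear scale it had the opposite sign and no call. Cxcl2, a related chemokine, had an interaction of -0.78. Ccl20, a lymphocyte chemokine, had 8.84 and 8.82, 10.48 and 10.55, 8.74 and 8.67, and 11.36 and 11.40 in HO1 ko/HO2 kd, HO1 ko, HO2 kd and control cells, with an interaction of 0.98. Ptgs2, the inducible cyclooxygenase, had 11.03 and 10.87 in HO1 ko/HO2 kd cells, 10.70 and 10.55 in HO1 ko cells, 10.06 and 10.16 in HO2 kd cells, and 10.63 and 10.62 in control cells, with HO2 kd arrays below the other 6 and an interaction of 0.83.

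Circadian transcription was the question of the study. In the core clock, 4 of 19 measured genes were lower than additive (21.1%, against 7.57% of all genes) and 0 higher, with a median of -0.16. Nr1d1, the heme-binding repressor REV-ERBα, had 10.56 and 10.56 in HO1 ko/HO2 kd cells, 9.71 and 9.92 in HO1 ko cells, 11.20 and 11.14 in HO2 kd cells, and 9.87 and 9.81 in control cells. The hairpin raised it by 0.74 in HO1-/- cells and by 1.33 in HO1+/+ cells, and the interaction was -0.59 ± 0.10 (SE, limma adjusted p = 0.00096). Bhlhe40, the repressor DEC1, had 10.33 and 10.10 in HO1 ko/HO2 kd cells, 10.83 and 10.51 in HO1 ko cells, 11.15 and 11.17 in HO2 kd cells, and 10.96 and 11.09 in control cells, with an interaction of -0.59. Clock, which pairs with BMAL1, and Cry2, a repressor of that pair, had interactions of -0.31 and -0.32 with adjusted p-values of 0.021 and 0.043 by limma. Their calls were lost in many alternatives: Clock passed in 9 of 20 and Cry2 in 7 of 20, and Cry2 was not called with the replicate block. The other clock genes were not called, among them Arntl, which encodes BMAL1 (0.12 ± 0.11 SE), Per2, a period repressor (-0.17 ± 0.11 SE), and Dbp, an output factor (-0.05 ± 0.13 SE). A single time after synchronization cannot tell a shift of phase from a change of level.

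Heme genes had calls in both directions. Among 11 genes of heme synthesis and breakdown, Hmox1, Hmox2 and Alad were higher than additive (27.3%, against 4.67% of all genes). Hmox1 and Hmox2 are the genes that the design targets, so their calls say nothing about the rest of the list. Fech and Alas1 were lower (18.2%, against 7.57% of all genes). Alad, which joins 2 aminolevulinate molecules, had an interaction of 0.43, and Fech, which inserts iron into protoporphyrin, had -0.52. Alas1, the rate-limiting synthase, had 11.60 and 11.54 in HO1 ko/HO2 kd cells, 11.52 and 11.52 in HO1 ko cells, 12.17 and 12.15 in HO2 kd cells, and 11.82 and 11.76 in control cells (interaction -0.32). Of 17 heme and iron handling genes, 6 were lower (35.3%, against 7.57% of all genes) and 1 higher, with a median of -0.08. The higher gene was Slc40a1, the iron exporter ferroportin, with 11.96 and 11.94 in HO1 ko/HO2 kd cells, 10.74 and 10.65 in HO1 ko cells, 11.43 and 11.47 in HO2 kd cells, and 10.76 and 10.87 in control cells (interaction 0.62 ± 0.08 SE, limma adjusted p = 0.0001). Hamp, which encodes hepcidin, the hormone that removes ferroportin from the cell surface, was lower than additive (-0.62 ± 0.07 SE), with 12.86 and 12.98, 13.34 and 13.19, 13.42 and 13.50, and 13.18 and 13.17 in HO1 ko/HO2 kd, HO1 ko, HO2 kd and control cells. NRF2 targets had 3 lower members (21.4%) and 1 higher member (7.14%; Sod1, superoxide dismutase, 0.50) of 14.

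The lists of non-hepatocyte cell types and of ribosomal proteins had medians above the 0.05 of all genes. The respiratory chain list had a median of 0.04, close to that of all genes. The 0.05 itself depended on dim genes and scaling. It was 0.009 without the dimmest 25% of genes and -0.0027 with arrays centred on their medians. Lymphocyte and neutrophil markers were dim, with median signals of 6.11 and 6.29 in HO1 ko/HO2 kd cells, against 8.17 over all genes. Stellate cell and fibroblast markers had 6 higher (31.6%, against 4.67% of all genes) and 2 lower members (10.5%, against 7.57%) of 19 (median 0.28). The higher members included Sparc, a matrix glycoprotein, at 0.72 and Acta2, smooth muscle actin, at 0.51. The lower members were Dcn and Lrat, and the interactions of the list reached from -0.85 to 0.72. Endothelial markers had 2 higher (11.8%) and 1 lower (5.88%) of 17, and cholangiocyte markers 2 higher (20%) and 1 lower (10%) of 10. Neutrophil markers had 1 higher and 1 lower (7.69% each) of 13. Of 12 lymphocyte markers 0 were called by limma. Only 2 of the 12 had an unadjusted limma p under 0.05, against 5629 of all 19938 genes tested. The p53 targets had 2 lower (14.3%) and 0 higher members of 14 (median -0.13). Respiratory chain genes had 1 higher (4.76%, against 4.67% of all genes) and 0 lower of 21. Cytosolic ribosomal protein genes had 5 higher (33.3%) and 0 lower of 15 (median 0.10). These ribosomal calls depended on the probe set and on scaling. Rpl19, Rpl27 and Rps18 lost the call with the mean of all probe sets of a gene. Rps3 and Rps18 lost it with arrays centred on their medians.

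**Figure D5:**
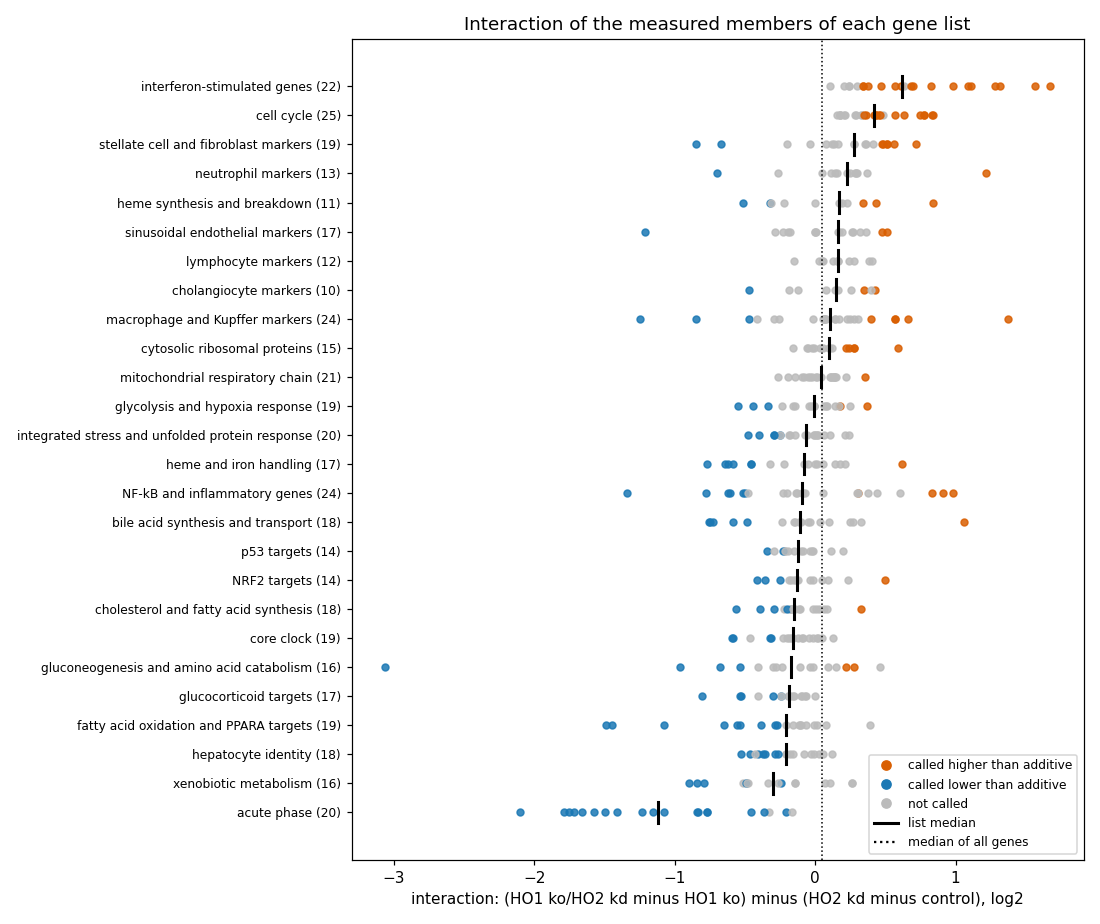
Interaction (log2, horizontal axis) of the measured members of each list (points, with the number measured in brackets), coloured by call, with the list median (thick line) and the median of all genes, 0.05 (dotted). Acute phase members lie lowest, with a median of -1.12, and interferon-stimulated and cell cycle genes lie highest, with medians of 0.62 and 0.42.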

How the data were processed

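The authors deposited log2 values for 34760 probe sets of mouse Affymetrix gene arrays, normalized by RMA with affy in R 2.15.0 per the submitters' processing notes. RNA input was 300 ng per array. No genome build is given in the sources used here. Of the probe sets, 21640 had 1 symbol in the platform table, 1321 several and 11799 none. The brightest probe set of each Entrez gene was kept (19938 genes; 953 had several), and 19855 were matched to RefSeq. limma 3.58.1 in R 4.3.3 fitted group means with a mean-variance trend to all 8 arrays (4 residual degrees of freedom), and p-values were adjusted over all genes by Benjamini-Hochberg. On simulated data, 10%, 56%, 100% and 100% of genes with interactions of 0.25, 0.5, 1 and 1.5 were called, and 6 of 139 calls were genes left unchanged. The 2 arrays per group limit the precision.

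The members, the 26 gene lists (458 of 503 entries measured) and the tests were chosen with earlier results of these data known. Named genes are Hmox1, Hmox2, the core clock, the 20 largest called interactions in each direction without predicted genes and small RNAs, 6 genes with opposite hairpin effects, 3 per group pattern and the 4 members of each list with the smallest p. Families, neighbouring genes, Fga, Fgb, Itih4, Saa3, Orm3, Alas1 and the albumin gene were named outside these rules, after their values were seen. Promoters were searched for 7 motifs (E-box CACGTG, ISRE core, NF-kB GGGANTTCC, ARE TGACNNNGC, CRE TGACGTCA, CHR and the RORE) on both strands. 20 alternatives were run.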

Additional observations from a re-analysis of the deposited data

Results flagged for a closer look

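The hairpin effect differed between HO1-/- and HO1+/+ cells, by the interaction term of limma, in 2442 genes. The 6 genes with the largest interaction among those with opposite hairpin effects in the 2 genotypes were Arg1 (-3.06), Lrg1 (-2.10), Cd36 (-1.85), Cyp4a12a (-1.81), Cyp4a12b (-1.67) and Ifit3 (1.67). Arg1, Lrg1, Cd36 and both Cyp4a12 genes rose with the hairpin in HO1+/+ cells and fell with it in HO1-/- cells, and Ifit3 did the reverse. The fall of Ifit3 in HO1+/+ cells rested mainly on control replicate 2. Its HO2 kd signals lay only a little below control replicate 1. Among probe sets that the gene comparison did not use, 350 without a symbol and 54 with several symbols were called when every probe set was tested, and they are not named here.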

How the results depend on the processing

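Of 121 named genes called, 60 passed in every alternative that could be run for them and 61 lost the call in at least 1; only Cxcl5 changed sign (0.0197 on the linear scale, as a share of its mean signal). The number of called genes was 2442, and it was 1359 without a mean-variance trend (586 higher, 773 lower). It was 1493 with additivity on the linear scale (597, 896) and 1065 at an adjusted p under 0.01 (342, 723). Against a minimum of 1.2-fold it was 315 (116, 199). With every probe set tested, 1287 probe sets were called (433, 854). They included the probe sets of 845 of the 2442 genes (274 higher, 571 lower). With arrays centred on their medians 615 genes were higher. Leaving out 1 array gave 1301 (without HO2 kd replicate 1) to 4745 genes (without control replicate 2), with 395 to 2495 higher and 847 to 2250 lower; without either HO1 ko/HO2 kd array it gave 1365 and 1349, and without HO1 ko replicate 1 it gave 1526. Cell cycle members higher than additive were 9 without a trend, 9 with centred arrays, 8 with every probe set tested, 6 on the linear scale, 8 at an adjusted p under 0.01 and 5 against 1.2-fold, and 8 to 14 with 1 array left out. Interferon-stimulated members higher than additive were 7 with every probe set tested, 10 on the linear scale and 6 against 1.2-fold, and 12 to 20 with 1 array left out. Acute phase members lower than additive were 15 to 18 in all alternatives. The cause of these differences was not tested. Same-numbered arrays did not deviate together (correlations -0.261 to 0.122), and with the replicate block 2327 genes were called (839 higher, 1488 lower). Called genes were brighter (median mean signal 9.79, against 8.16 over all genes).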

Other observations

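By RefSeq gene order, 31 runs of 3 or more neighbouring genes were called in the same direction. These runs were looked for after the values were seen and were not tested, and runs of close copies may share probe signal. The longest held 6 glutathione S-transferase genes of the mu class, from Gstm7 to Gstm4, with their neighbour Ampd2, all 7 lower than additive, between -0.82 and -0.33. The secreted protein genes Ahsg, Fetub, Hrg, Kng2 and Kng1, which encode fetuins, histidine-rich glycoprotein and kininogens, formed a run of 5 lower genes, between -0.96 and -0.46. Lrat, the retinol esterifying enzyme of stellate cells, lay in a run with Fgg, Fga and Fgb, also lower. Among the higher runs were Slfn5, Slfn9, Slfn8 and Slfn10-ps (0.62 to 1.25), the complement genes C1qb, C1qc and C1qa (0.40 to 0.66), and Parp14, Dtx3l and Parp9, an interferon-stimulated trio of ADP-ribosylation genes (0.36 to 0.68). 2 runs of replication-dependent histone genes, H2bc14, H2ac15 and H1f5 (0.40 to 1.03) and H2bc3, H2ac4 and H1f1 (0.42 to 0.81), were higher than additive, as the cell cycle list was.

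Both chemokine families had calls in both directions: of 19 measured Ccl genes 7 were higher than additive and 3 lower, and of 13 Cxcl genes 4 were higher and 5 lower, against 4.67% higher and 7.57% lower over all genes. Igfbp3, a carrier of insulin-like growth factors, had 11.43 and 11.32 in HO1 ko/HO2 kd cells, 9.85 and 9.79 in HO1 ko cells, 11.23 and 11.35 in HO2 kd cells, and 10.96 and 10.91 in control cells, with HO1 ko arrays below the other 6 (limma adjusted p of the interaction = 4.1e-07). Prelp, a matrix proteoglycan, had 8.32 and 8.35, 10.35 and 10.35, 9.17 and 9.28, and 9.14 and 9.20 in the same order, with an interaction of -2.07. H2-M2 and Vnn3 fell with the hairpin in both genotypes, and by more in HO1-/- cells (log2 -3.31 and -2.79) than in HO1+/+ cells (log2 -1.54 and -0.98).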
